A study of Homo sapiens with 22 samples.

Results

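Estradiol (E2) was compared with its solvent in Ishikawa cells, a human endometrial adenocarcinoma line, that carried FLAG-tagged wild-type estrogen receptor alpha (ESR1). The comparison took the 8 peak lists whose labels name a wild-type clone, out of 22 samples in the series, 4 of them from cells given 10 nM E2 for 1 h and 4 from cells given 0.1% DMSO for 1 h. Both treatments were applied to wild-type clone 1 and wild-type clone 2, with 2 replicates each, so every E2 list had a DMSO list of the same clone and replicate number. All cells had first been starved of hormone for at least 5 days, in phenol-red-free medium whose serum was charcoal-stripped, and all were precipitated with an anti-FLAG antibody. The other precipitated samples came from clones whose receptor carries the ligand-binding-domain mutation D538G and are used below only as libraries that had no part in choosing sites. The wild-type group rests on 2 clones of 1 cell line. The series also holds a wild-type and a D538G input sample, which were not used here. Whether the authors' peak calling used them is unknown, as is how deeply each library was sequenced.

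ESR1 is a nuclear receptor that estradiol switches on by binding its ligand-binding domain. The hormone-bound receptor dimer binds estrogen response elements, an inverted repeat of the half-site GGTCA with 3 bases in between (GGTCA, 3 bases, TGACC), and also reaches DNA through partner factors. In breast and endometrial cells much of its binding is known to lie in enhancers away from gene starts, and its classical targets include *GREB1*, *PGR* and *TFF1*. In the endometrium estrogen drives growth of the epithelium, and progesterone, through the receptor encoded by *PGR*, opposes it.

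The lists differed in a way that touches each result. With E2 they held 8206 peaks in clone 1 replicate 1, 35344 in clone 1 replicate 2, 5757 in clone 2 replicate 1 and 31108 in clone 2 replicate 2. With DMSO they held 51, 29118, 45 and 1080 peaks in the same order. The DMSO list of clone 1 replicate 2 therefore stood apart from the other 3 DMSO lists, and the results on gained regions as a class are given with and without it. Peak lists alone cannot show whether this library matches its label, so each overlap with it is an overlap with the library labelled DMSO clone 1 replicate 2. In both treatments the replicate 2 lists were also longer than the replicate 1 lists of the same clone. The narrowest peak was 54 bp and 53 bp wide in the short DMSO lists of replicate 1, against 185 to 208 bp in the longest DMSO list and in the others.

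**Figure D1:**
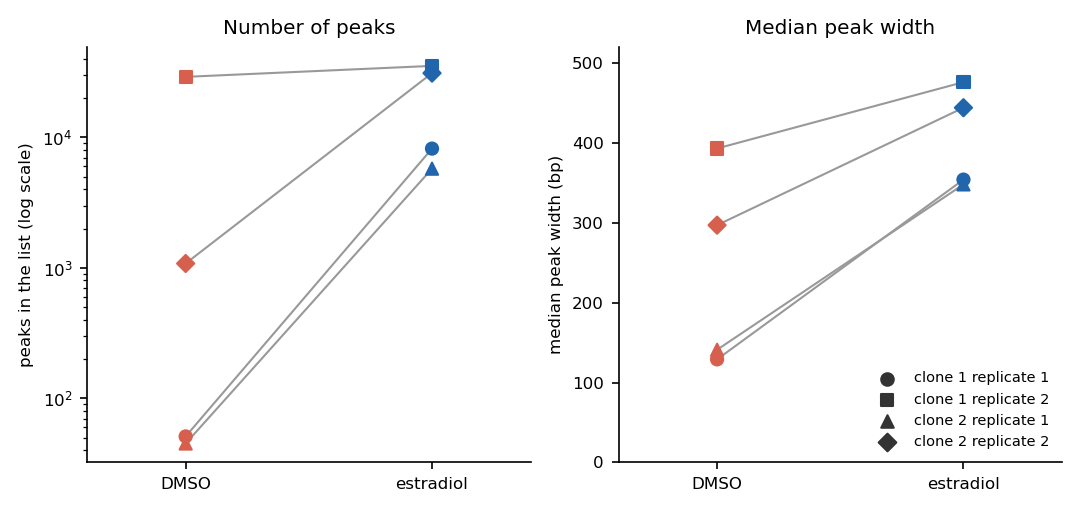
Number of peaks (left, log scale) and median peak width in bp (right) of each wild-type list, with a grey line joining the DMSO and E2 lists of 1 clone and replicate number. In each of the 4 pairs the E2 list is longer and its median peak wider, and the DMSO list of clone 1 replicate 2, with 29118 peaks, lies close to its E2 partner with 35344.

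More sites and wider peaks were called with E2 in every pair, but neither difference passed a test over the 8 lists. The median peak width was 354, 476, 348 and 444 bp in the E2 lists and 129, 393, 141 and 297 bp in the DMSO lists, in the order used above. The E2 median thus exceeded that of its DMSO partner in 4 of 4 pairs, while the groups overlapped through the longest DMSO list, whose median lay above those of both replicate 1 lists with E2. The means were 406 ± 64.3 bp (SD, n = 4) and 240 ± 128 bp (SD, n = 4), a difference of 166 bp with an adjusted p of 0.129 by the exact two-sided permutation test. On the log10 scale of peak number the means were 4.18 ± 0.400 (SD, n = 4) with E2 and 2.72 ± 1.32 (SD, n = 4) with DMSO, a ratio of geometric means of 28.8, again with an adjusted p of 0.129 by the exact permutation test. Without the DMSO list of clone 1 replicate 2 the differences were 216 bp and 2.04 log10 units, each with an unadjusted exact permutation p of 0.0286, the smallest this design allows. The part that read depth and the unlike narrowest peaks of the lists play in the width difference was not tested.

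Wide peaks made up different shares of the lists. Peaks of at least 1 kb were 2.69% and 1.98% of the replicate 1 lists with E2, 13.4% and 9.92% of the replicate 2 lists with E2, 6.44% of the longest DMSO list and 0.556% of the DMSO list of clone 2 replicate 2. Among the 1000 strongest peaks of each E2 list the median width was 675, 1529, 622 and 1245 bp, so the strong peaks of replicate 2 were about as wide again as those of replicate 1 or wider in both clones.

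Pair by pair, most of what was called with DMSO was called with E2 as well, with the lowest share, 78.8%, in the pair that held by far the most DMSO regions. After peaks of the 8 lists that overlapped were merged into 43404 regions, the E2 list shared 38 of 43 DMSO regions in clone 1 replicate 1, 38 of 40 in clone 2 replicate 1, and 976 of 985 in clone 2 replicate 2. In clone 1 replicate 2 it shared 20322 of 25781, and 5459 regions had a DMSO peak alone. Regions called with E2 alone numbered 7715, 14280, 5411 and 28354, in the order of clone 1 replicates 1 and 2 and clone 2 replicates 1 and 2. They made up 99.5%, 41.3%, 99.3% and 96.7% of the E2 regions, so the pair with the longest DMSO list was the one in which most E2 regions had a DMSO peak. All 100 of the strongest E2 regions of both replicate 2 lists had a peak in the paired DMSO list, against 6 and 14 of 100 in the replicate 1 pairs, whose DMSO lists held only 51 and 45 peaks.

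The regions were then sorted by the number of lists that held them. Of 30262 regions that 2 or more of the 8 lists held, 2766 had a peak in all 4 E2 lists and in no DMSO list, 9.14% of those tested, and these are called gained regions here. No region had the opposite pattern, but it needs a peak in both replicate 1 DMSO lists, which held only 43 and 40 regions. Nearly every region lacks a peak in those lists, so the counts of the opposite patterns do not weigh the directions evenly. Gained regions were the ones that reached an unadjusted p of 0.0286 by Fisher's exact test over lists, the smallest that 4 lists against 4 can give. After adjustment over all 30262 regions by the Benjamini-Hochberg method 0 regions passed (0% called, smallest adjusted p 0.313 by Fisher's exact test), so the gained regions are a class defined by presence and not a tested set. Without the longest DMSO list 3833 regions were gained, 1067 more, and all 2766 remained among them. Leaving out any other single list gave 2767 to 3872. The count depends more on which lists and peaks enter, with 5237 within replicate number 1, 8735 within replicate number 2 and 30 when only the 1000 strongest peaks of a list were kept.

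Gained regions were the fifth most frequent of the patterns. The most frequent, with 14909 regions or 34.3% of all, joined the replicate 2 E2 lists of both clones with the longest DMSO list and with no other. Of 19690 regions shared by both replicate 2 E2 lists and absent from both replicate 1 E2 lists, 76.1% lay in the longest DMSO list. By contrast, 36.5% of the 5055 regions shared by both replicate 1 E2 lists did, and 92.7% of those 5055 were found again in both replicate 2 E2 lists. The regions of the longest DMSO list were shared with both replicate 2 E2 lists in 68.1% of cases and with any replicate 1 E2 list in 10.3%. Replicate number and list length move together here, and their parts in this pattern cannot be told apart.

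**Figure D2:**
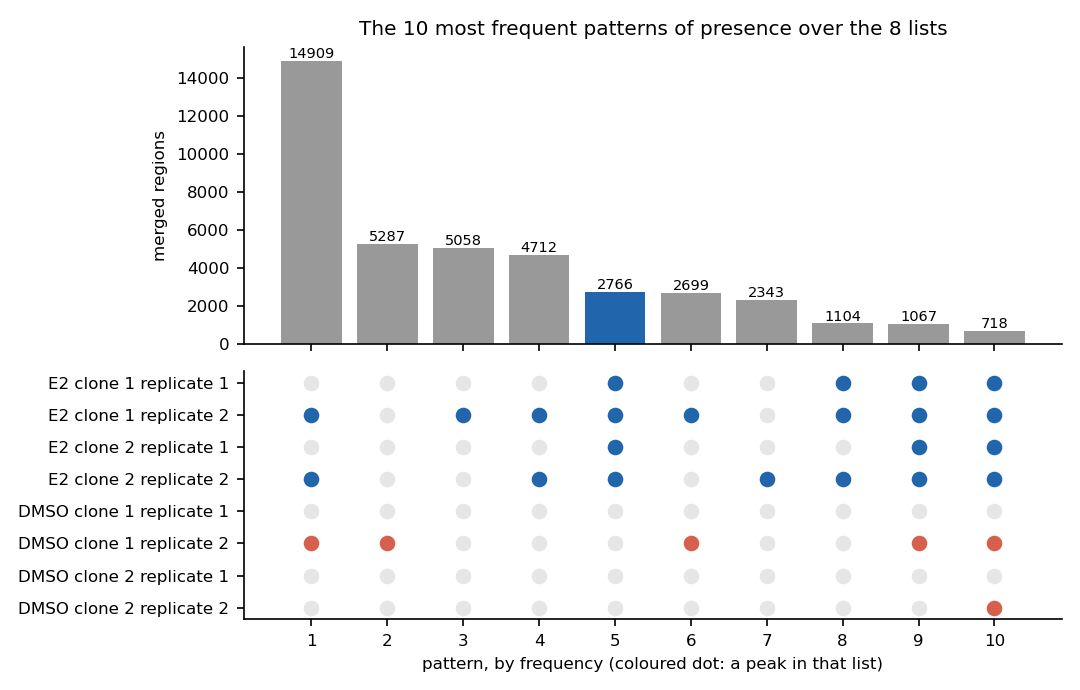
Upper panel, number of merged regions in each of the 10 most frequent patterns of presence, with gained regions in blue. Lower panel, a coloured dot where the pattern holds a peak in that list (blue E2, red DMSO). The pattern of both replicate 2 E2 lists with the DMSO list of clone 1 replicate 2 holds 14909 regions, and the pattern of all 4 E2 lists and no DMSO list holds 2766.

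Whether gained sites recur in cells that did not choose them was read across clones. Regions with a peak in both E2 lists and neither DMSO list of clone 1 numbered 4352, and 92.6% of them (95% exact Clopper-Pearson interval over regions 91.7% to 93.3%) had a peak in at least 1 E2 list of clone 2, against 2.07% in a DMSO list of clone 2. The interval covers counting error only. In the single E2 lists of clone 2 the shares were 67.1% for replicate 1 and 91.0% for replicate 2, where 14.8% and 75.4% of all regions with any clone 1 E2 peak were found. This background is not matched to the choice, since each chosen region has a replicate 1 peak and most background regions need not. Of all 7753 regions of E2 clone 1 replicate 1, whatever the DMSO lists held, 5055 lay in E2 clone 2 replicate 1. That is close to the share of the chosen regions there, 2921 of 4352. The distance from the background therefore does not show recurrence particular to gained sites. Read the other way, 96.8% of 4341 regions chosen in clone 2 had an E2 peak in clone 1, and 25.4% had a DMSO peak there. That DMSO share came from the longest DMSO list, which held 25.3% of them and 59.9% of all regions with any clone 2 E2 peak.

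The D538G libraries had no part in the choice, and in each pair of them more of the gained regions had a peak with E2 than with DMSO. Of the 2766 gained regions, the D538G lists of clone 1 replicate 1, clone 1 replicate 2, clone 2 replicate 1, clone 2 replicate 2, clone 3 replicate 1 and clone 3 replicate 2 held 90.3%, 65.7%, 66.6%, 29.8%, 95.9% and 40.7% with E2. With DMSO they held 38.6%, 61.7%, 47.4%, 21.8%, 49.0% and 21.5%. The E2 share was the higher one in 6 of 6 pairs, although the E2 list was the shorter one in clone 1 replicates 1 and 2 and in clone 2 replicate 2. The means were 64.8 ± 26.2% (SD, n = 6) and 40.0 ± 16.0% (SD, n = 6), and the groups overlapped. The unpaired exact permutation test gave a p of 0.0758 and an adjusted p of 0.227 over the 3 classes of region compared. With the E2 and DMSO lists paired by clone and replicate number, the exact sign-flip permutation test gave an unadjusted p of 0.0312, the smallest that 6 pairs allow. This did not hold for the 3833 regions gained without the longest wild-type DMSO list. Their means were 68.6 ± 25.2% (SD, n = 6) and 49.3 ± 17.4% (SD, n = 6), higher with E2 in 4 of 6 pairs, with an exact permutation p of 0.160 unpaired and 0.125 paired.

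Regions that wild-type cells held in DMSO as well were frequent in the mutant lists of both treatments. The 764 regions in all 4 wild-type E2 lists and at least 2 wild-type DMSO lists were present at a mean share of 89.9% with E2 (range over 6 lists 56.0% to 100%) and 87.0% with DMSO (50.5% to 100%), higher with E2 in 3 of 6 pairs (exact permutation p 0.760, adjusted p 0.760). Whether the E2 difference of gained regions exceeds that of these regions was not tested. Of the gained regions, 750 (27.1%) had a peak in none of the 6 D538G DMSO lists and 51 (1.84%) in none of the 6 D538G E2 lists. For the 1155 regions in all 4 wild-type E2 lists and 1 wild-type DMSO list these counts were 18 (1.56%) and 1 (0.0866%). For the 764 regions both were 0. Mean shares of the 1155 were 78.1% with E2 and 72.4% with DMSO, higher with E2 in 4 of 6 pairs. The exact permutation test gave a p of 0.740 and an adjusted p of 0.760.

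Gained regions were mostly of middle rank within a list. Peaks were ranked within each list by the signal value that the authors deposited, with rank 1 and percentile 100 for the strongest. The median percentile of gained regions was 64.4 in E2 clone 1 replicate 1, 59.8 in clone 1 replicate 2, 53.2 in clone 2 replicate 1 and 70.0 in clone 2 replicate 2. In the same lists, the 1155 regions held by all 4 E2 lists and 1 DMSO list had medians of 66.8, 92.3, 49.5 and 89.4. The 764 held by 2 or more DMSO lists had 88.0, 98.4, 81.0 and 98.4. Regions already called without hormone in at least 2 lists were thus the higher class in each E2 list, and those in 1 DMSO list stood well above gained regions in the replicate 2 lists but not in the replicate 1 lists. Regions gained without the longest DMSO list had medians of 64.6, 71.5, 51.5 and 75.7. These classes were formed from the same lists, so the medians are a description.

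Among the 1000 strongest regions of each E2 list, 403, 45, 436 and 36 were gained, in the order of clone 1 replicates 1 and 2 and clone 2 replicates 1 and 2. Without the longest DMSO list the counts were 573, 246, 580 and 186. The best-placed gained region ranked 13, 207, 16 and 167. The replicate 1 lists, of which 1000 regions are a larger share, thus held more gained regions among them than the replicate 2 lists, where 935 and 944 of the 1000 strongest had a peak in the longest DMSO list and 225 and 226 were not shared by all 4 E2 lists. Each whole E2 list holds all 2766 gained regions, among 7753, 34602, 5449 and 29330 regions in the same order. Their part of the whole list is thus also much larger in replicate 1. The counts among the 1000 strongest do not show that gained regions are prominent there.

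Width followed the same order. The merged regions had median widths of 592 bp for gained regions, 1053 bp for regions with 1 DMSO list, and 1736 bp for regions with 2 or more, and 11.2%, 54.4% and 89.0% of each class reached 1 kb. Regions gained without the longest DMSO list had a median width of 689 bp. Within the single lists gained regions were narrower too, at 411, 508, 350 and 505 bp against 652, 1685, 522 and 1354 bp for the class with 2 or more DMSO lists. A wider merged region meets a peak of another list more easily, and the part this plays in the classes was not tested.

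**Figure D3:**
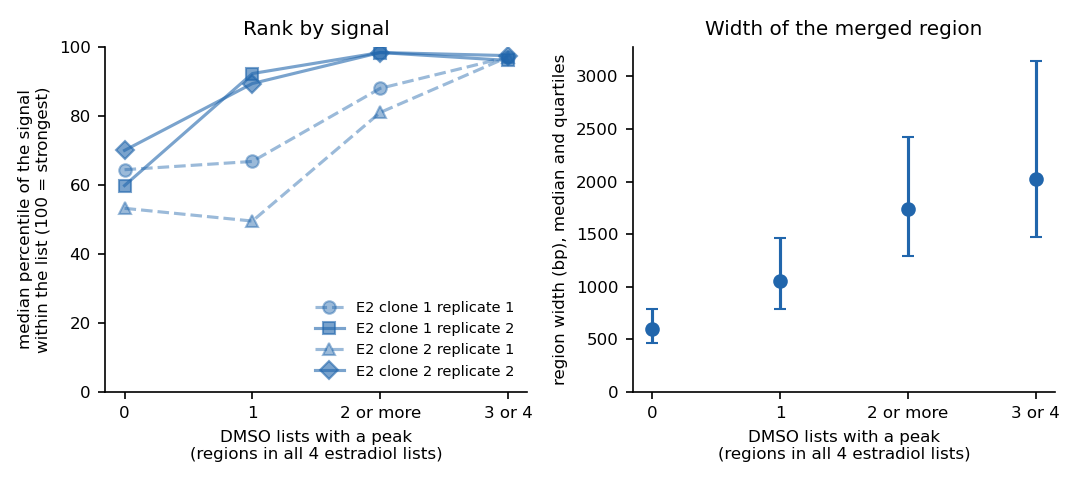
Regions present in all 4 E2 lists, by the number of DMSO lists that hold them. Left, median percentile of the deposited signal value in each E2 list (dashed replicate 1, solid replicate 2); right, median merged width in bp with quartiles. Median width rises from 592 bp with no DMSO list to 2022 bp with 3 or 4.

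The 10 gained regions with the highest mean percentile over the 4 E2 lists were spread over 7 chromosomes. All coordinates are GRCh37 and 1-based, gene positions were entered by hand, and whether a region touches an exon or an intron was not determined. The first, at chr5:141660388-141661237, lay 43.4 kb downstream of the start of *SPRY4*, which encodes an inhibitor of receptor tyrosine kinase signalling, and beyond that gene. It ranked 63 in E2 clone 1 replicate 1, 737 in clone 1 replicate 2, 69 in clone 2 replicate 1 and 1064 in clone 2 replicate 2, with no peak in any DMSO list. The second, at chr3:77611212-77613030 within *ROBO2*, a guidance receptor gene, ranked 36, 1741, 16 and 794. These ranks come from lists of unequal length. As percentiles within each list the first stood at 99.2, 97.9, 98.8 and 96.6 and the second at 99.6, 95.1, 99.7 and 97.5, so both lay among the strongest sites of all 4 E2 lists and somewhat higher in those of replicate 1.

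The next places held regions within *MGAT3*, a glycosyltransferase gene (chr22:39878493-39879604, ranks 44, 1400, 38 and 1100), on chromosome 18 away from the genes entered (chr18:10121722-10122832, ranks 66, 1977, 30 and 961) and within *SCAMP2*, which encodes a membrane trafficking protein (chr15:75139390-75140632, ranks 57, 1149, 107 and 1689). Below them came a region 80.6 kb upstream of *SIAH2*, an estrogen-induced ubiquitin ligase gene (chr3:150561863-150563051), and one within *TGIF2*, a repressor of the TGF-beta pathway (chr20:35215223-35216182). A region within the adaptor gene *SHC2* (chr19:453878-457549) ranked 394, 323, 309 and 167, at percentiles of 95.2, 99.1, 94.6 and 99.5, and so stood higher in the replicate 2 lists. The last of them, 22.4 kb upstream of *SKIL*, another TGF-beta repressor gene (chr3:170052436-170053098), ranked 152, 2258, 70 and 817, and the ninth lay at chr15:76400193-76400976 with no entered gene within 100 kb.

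The *SHC2* region was also the widest gained region at 3672 bp, but this width came from the replicate 2 lists, with peaks of 3363 and 1993 bp against 621 and 557 bp in the replicate 1 lists. The other widest gained regions lay in *AFF1*, which encodes a scaffold of the super elongation complex (chr4:88041748-88044605, 2858 bp), and in *MAD1L1*, a mitotic checkpoint gene (chr7:1977735-1980512, 2778 bp). At *MAD1L1* the peaks were 288 and 210 bp wide in replicate 1 and 2778 and 1304 bp wide in replicate 2. The width of a gained region was therefore mainly set by the replicate 2 lists in these cases.

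Sites held with and without hormone included the strongest in the lists. The region at chr1:6482620-6488504, over the start site of *ESPN*, an actin-bundling protein gene, had a peak in all 8 lists and ranked 14, 88, 5 and 33 with E2 and 14, 2, 10 and 11 with DMSO. Its peak was wider with E2 in each pair, at 1426 against 258 bp, 5873 against 3300 bp, 1265 against 148 bp and 3461 against 1013 bp. A region within *DIP2C* (chr10:549538-554528) was likewise in all 8 lists, ranking 24, 205, 10 and 121 with E2 and 3, 1, 3 and 29 with DMSO. Regions within *KAZN* (chr1:15239371-15241461) and *ZMIZ1*, a coactivator gene (chr10:80909037-80911997), and 1 near *GREB1* were held in 3 DMSO lists each. Signal values are not comparable between lists of unknown depth, so no change of signal at these sites is given. The widths have a like limit, since the narrowest peak was 54 and 53 bp in the replicate 1 DMSO lists and 185 to 208 bp in the others.

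No region was called in more than 2 DMSO lists without an E2 peak, which would need a replicate 1 DMSO list with its 43 or 40 regions. Regions called in 2 DMSO lists without an E2 peak numbered 6. A pair of those, at chr2:133026752-133026820 and chrY:10025196-10025264, were 69 bp wide and came from the short replicate 1 lists. Another, at chr12:56211277-56212022, came from the replicate 2 lists, at ranks 4151 and 1038.

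Loci of known estrogen targets, and of the receptor and its partner factors, were read next. The start sites of these 43 genes, taken as GRCh37 positions, were searched for regions within 50 kb either way. Gained regions lay at 21 of the 43 loci (48.8%), while 7.25% of 29496 tiles of 100 kb across the genome held one. A region in all 4 E2 lists lay at 25 loci (58.1%), against 10.2% of tiles. Tiles include gene-poor sequence, so they are a background for the genome and not for genes. The genes were also chosen with earlier results of these data known, and *TFF1* and *TFF2* share their gained regions. The distance from the tiles is therefore a description and not a test of enrichment. By group, 12 of 19 classical targets, 5 of 15 endometrial genes, 1 of 3 immediate early genes and 3 of 6 genes of the receptor and its partner factors held a gained region. Without the longest DMSO list 24 of 43 did, but the matching share of tiles was not computed. No E2 list had a peak near *CXCL12*, *IGF1*, *SGK1*, *OLFM1* or *FOXA2*.

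Among classical targets *GREB1*, a growth-related coregulator gene, held 4 gained regions, at 21, 18.3, 9.30 and 1.28 kb upstream of its start. Their mean percentiles over the E2 lists were 38.0, 55.5, 51.6 and 38.9, so they were middling or weak. The strongest region of the locus was not gained. At chr2:11638056-11639594, 34.6 kb upstream, it ranked 79 in E2 clone 1 replicate 1, 282 in clone 1 replicate 2, 37 in clone 2 replicate 1 and 166 in clone 2 replicate 2, and 568, 16 and 23 in the DMSO lists of clone 1 replicate 2 and clone 2 replicates 1 and 2. A further region 4.95 kb downstream of the start (chr2:11679191-11680646) ranked 499, 622, 795 and 584 with E2 and was in 2 DMSO lists. At this gene the strong sites were thus called with and without hormone and the weaker ones with hormone alone.

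*TFF1*, a secreted mucosal peptide gene and a standard readout of estrogen action, held 2 regions in all 4 E2 lists, and both were gained. The nearer, at chr21:43796271-43797049, 9.63 kb upstream of the start, ranked 4635, 1429, 1759 and 743 in E2 clone 1 replicates 1 and 2 and clone 2 replicates 1 and 2, with no DMSO peak. The farther, 22.6 kb upstream at chr21:43809219-43809881, ranked 4458, 24210, 3578 and 17560. Both also lie within 50 kb of the neighbouring *TFF2*, and are counted at both loci. *PGR*, which encodes the progesterone receptor, held 1 gained region, 26.4 kb downstream of its start at chr11:100973640-100974178, with ranks of 2107, 23509, 2532 and 12700.

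Of the other classical targets 8 held 1 or 2 gained regions and 7 held none. *IGFBP4*, a growth factor binding protein gene, had them 5.11 and 36 kb downstream of its start (mean percentiles 86.5 and 73.7). *CA12*, a carbonic anhydrase gene, had them 1.59 kb downstream and 5.48 kb upstream (68.0 and 87.0). Single gained regions stood at *XBP1* (13.0 kb upstream, 61.3), *CTSD* (8.48 kb upstream, 62.7), *SIAH2* (6.33 kb downstream, 80.3), *STC2* (25.2 kb downstream, 52.7), *TRIM25* (22 kb downstream, 87.8) and *EGR3* (45.2 kb upstream, 93.0). The last was the strongest gained region at any of the 43 loci. *CCND1*, the cyclin D1 gene, had 1 region in all 4 E2 lists, 1.46 kb upstream, which 2 DMSO lists held as well, and *RARA*, a retinoic acid receptor gene, had 4, each in 1 or 2 DMSO lists.

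In the endometrial group, *VEGFA*, which encodes an angiogenic growth factor, held a gained region 8.89 kb upstream at chr6:43728140-43729060. It ranked 594, 3116, 547 and 2909 in the E2 lists in the usual order. A second region only 7.43 kb upstream, at chr6:43729176-43730519, ranked 687, 763, 559 and 2253 and was also at rank 515 of the longest DMSO list. Neighbouring sites 1 kb or less apart thus fell in different classes through that list. *LIF*, a cytokine gene needed for implantation, held 5 regions in all 4 E2 lists, of which 1 was gained and the other 4 were in the longest DMSO list alone. *FHL2*, *ALPP* and *TGFA* held 1 gained region each, while at *MMP17* and *CISH* every region in all 4 E2 lists also had a DMSO peak.

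*ESR1* itself held 5 gained regions, the most at any of the 43 loci and with no region in all 4 E2 lists that a DMSO list shared. They lay 34.8, 32.6, 25.4 and 1.97 kb upstream and 13.7 kb downstream of the start site taken here. The 1 at chr6:152125569-152126484, 1.97 kb upstream, ranked 1350, 6515, 1098 and 3688 and the downstream one, at chr6:152142181-152142622, ranked 903, 14279, 713 and 7627. *PAX8*, a transcription factor gene of the female tract, held 2 gained regions 7.71 and 9.64 kb upstream, and *SOX17*, an endometrial factor gene, held 1 at 4.42 kb upstream. *FOXA1* and *GATA3*, partner factor genes known from breast cells, held no region in all 4 E2 lists. Of the immediate early genes, *FOS* held 2 gained regions, 26.1 and 23.4 kb upstream, and *JUN* and *EGR1* held none.

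**Figure D4:**
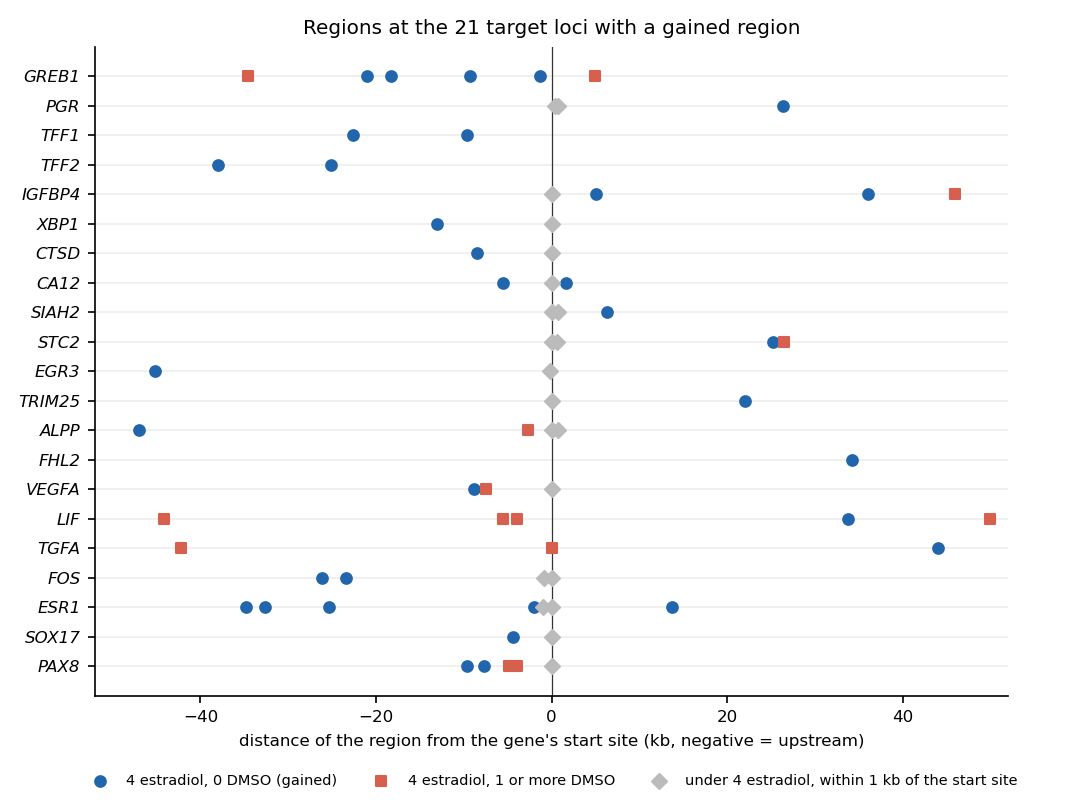
Regions at the 21 loci with a gained region, by distance in kb from the start site (negative upstream). Blue circles are gained regions, red squares regions in all 4 E2 lists and at least 1 DMSO list, and grey diamonds regions in fewer E2 lists within 1 kb of the start. No blue circle lies within 1 kb of a start site, and *ESR1* has 5 of them.

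Start sites of the 43 genes gave another pattern. The share over all genes could not be computed, so the counts below do not show whether these genes were preferred. A peak within 1 kb of the start site was present at 4 and 1 of the 43 genes in the replicate 1 E2 lists of clones 1 and 2, and at 32 and 29 in the replicate 2 E2 lists. In the DMSO lists it was present at 26 genes in clone 1 replicate 2, 1 in clone 2 replicate 2 and 0 in both replicate 1 lists. Counted by merged regions within 1 kb, which can reach nearer the start than a single peak, 30 start sites had a region in both replicate 2 E2 lists, 27 of them also one in the longest DMSO list, and none a gained region. Sites farther off differed less between replicates, since 26 and 25 genes had a peak between 1 and 50 kb away in the replicate 1 E2 lists and 37 and 36 in the replicate 2 E2 lists. Because a gained region needs a peak in both replicate 1 lists, which hold few start sites, the absence of gained start sites follows in part from the rule.

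Longer lists mostly met more start sites. The D538G lists of clone 2 replicate 2 held 1977 peaks with E2 and 54903 with DMSO, and met 0 and 29 of the 43. Those of clone 3 replicate 2 held 49223 with E2 and 1619 with DMSO, and met 32 and 2. Lists of similar length could still differ. Among the D538G lists, that of clone 1 replicate 1 with E2 held 12566 peaks and met 3 of the 43 start sites, while its DMSO partner held 12963 peaks and met 19. List length, read depth and library quality were not told apart further, and their parts in the start-site peaks were not tested.

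The start sites concerned included *MYC*, *NRIP1*, *IGFBP4*, *XBP1*, *CTSD*, *CA12*, *SIAH2*, *VEGFA*, *FOS*, *JUN* and *EGR1*, each absent from both replicate 1 E2 lists. At *IGFBP4* the region over the start (chr17:38599533-38600495) had a mean percentile of 97.1 in the replicate 2 E2 lists, and at *ESR1* the region 0.0410 kb downstream of the start ranked 4033 and 4965 with E2 and 22725 in the longest DMSO list. *TGFA* encodes a ligand of the epidermal growth factor receptor. It alone of the 43 had a region within 1 kb of its start in all 4 E2 lists. Its start site lay in a region (chr2:70779694-70782150) with ranks 3336, 249, 2427 and 245 in the E2 lists and 1602 and 201 in the replicate 2 DMSO lists, and so in all 4 E2 lists and 2 DMSO lists. *CISH*, a suppressor of cytokine signalling, had a region over its start in 3 E2 lists and the longest DMSO list. So did *CCND1*. At *ALPP* a region 0.768 kb downstream of the start was in 3 E2 lists and no DMSO list.

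The promoters of 4 of these genes are shown for the merged region over each start site. Of the E2 lists, all 4 (*TGFA*), 3 (*CISH*) or those of replicate 2 alone (*IGFBP4*, *XBP1*) had a peak in that region. The peak of a single list need not cover the start. Each is the RefSeq sequence of GRCh38.p14 from 250 bases before to 50 after the start, 5′ to 3′ on the gene's strand, with estrogen response half-sites (GGTCA or TGACC, so either strand) in capitals. In that build they lie at chr2:70553777-70554076 (minus strand), chr3:50611725-50612024 (minus), chr17:40443200-40443499 (plus) and chr22:28800520-28800819 (minus).
TGFA: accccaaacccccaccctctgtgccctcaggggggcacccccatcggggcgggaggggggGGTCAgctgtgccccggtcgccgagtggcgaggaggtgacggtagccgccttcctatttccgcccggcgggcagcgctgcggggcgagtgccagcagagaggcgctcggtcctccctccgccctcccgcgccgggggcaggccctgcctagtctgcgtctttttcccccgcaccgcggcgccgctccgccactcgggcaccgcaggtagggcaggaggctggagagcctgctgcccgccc
CISH: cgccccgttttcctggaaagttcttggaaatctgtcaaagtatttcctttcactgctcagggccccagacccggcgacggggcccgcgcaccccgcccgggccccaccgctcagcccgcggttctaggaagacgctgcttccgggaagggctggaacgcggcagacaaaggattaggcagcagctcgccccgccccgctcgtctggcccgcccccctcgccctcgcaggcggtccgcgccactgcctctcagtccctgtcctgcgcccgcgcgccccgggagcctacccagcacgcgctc
IGFBP4: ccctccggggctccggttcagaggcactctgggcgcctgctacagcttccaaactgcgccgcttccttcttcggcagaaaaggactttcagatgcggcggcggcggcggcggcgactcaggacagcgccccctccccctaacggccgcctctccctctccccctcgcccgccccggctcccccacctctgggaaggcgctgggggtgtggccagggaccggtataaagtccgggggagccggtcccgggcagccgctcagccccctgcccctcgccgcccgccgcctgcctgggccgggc
XBP1: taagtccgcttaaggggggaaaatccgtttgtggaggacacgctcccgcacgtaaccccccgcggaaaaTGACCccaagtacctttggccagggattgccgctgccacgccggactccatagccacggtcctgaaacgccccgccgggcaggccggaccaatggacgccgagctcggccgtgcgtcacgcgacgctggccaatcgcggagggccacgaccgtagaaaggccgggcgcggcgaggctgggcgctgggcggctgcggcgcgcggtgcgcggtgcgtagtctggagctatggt
*TGFA* and *XBP1* have 1 half-site each in these windows, and *CISH* and *IGFBP4* have none. A half-site occurs in 37.4% and the full inverted repeat in 0.0570% of the 35116 promoter windows of the same length, and none of the 4 windows has the full repeat. All 4 are rich in G and C, at 75.3%, 70.3%, 74.0% and 68.7%.

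Gained regions were partly grouped. With neighbours joined when no more than 12.5 kb apart, the 2766 gained regions fell into 2401 chains, of which 2114 were single regions and 63 held 3 or more, and 23.6% of the regions had a gained neighbour. Without the longest DMSO list 31.5% of the 3833 gained regions did, 135 chains held 3 or more regions, and the longest held 6. Among all 4685 regions in 4 of 4 E2 lists, 38.3% had such a neighbour. Gained regions had another region of that kind within 12.5 kb in 31.5% of cases, or 36.0% when defined without the longest DMSO list, against 46.0% for those with 1 DMSO list and 51.0% for those with 2 or more. The denser surroundings thus belonged to sites that DMSO lists shared.

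The longest chains of gained regions held 5 regions each. One spanned 20.1 kb and began 64.7 kb downstream of the start of *MYC*, the growth regulator gene, whose own 50 kb window held no gained region. Another spanned 23.9 kb within *SHROOM3*, a cell shape gene (chr4:77467899-77491796), and the third, of 4 regions, lay at chr6:122384019-122391465. When all regions in 4 of 4 E2 lists were chained, the longest held 12 regions over 65.5 kb from within *CUEDC1* (chr17:55936958-56002454), followed by 9 beginning 46.1 kb upstream of *NDST1* (chr5:149840455-149899303) and 7 from within *CARD10* (chr22:37892625-37916258). Over the lists, the share of the 1000 strongest peaks with another of them within 12.5 kb was 18.7%, 23.5%, 20.3% and 22.7% with E2, and 8.60% and 30.9% in the replicate 2 DMSO lists of clones 1 and 2. The other DMSO lists were too short for this measure. The means of 21.3 ± 2.20% (SD, n = 4) and 19.8 ± 15.8% (SD, n = 2) gave an exact permutation p of 0.800, where the smallest possible is 0.0667.

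Gained regions lay on all autosomes and on X, at 0.939 per Mb of the span the lists covered. Chromosomes 22 and 17 were densest with 1.34 and 1.33 per Mb and chromosome 16 was sparsest of the autosomes with 0.600, a range of 2.23 times. On X the density was 0.309 per Mb. Gained regions were also set against all regions in 4 of 4 E2 lists on the same chromosome. They made up 59.0% of these over the genome, 83.9% on X (47 of 56), 73.1% on chromosome 5 and 71.0% on chromosome 4, but 35.8% on chromosome 16, 35.4% on chromosome 22 and 30.3% on chromosome 19 (56 of 185). All regions in 4 of 4 E2 lists stood at 3.15 and 3.77 per Mb on chromosomes 19 and 22, but at 1.68 per Mb on chromosome 16, whose gained share was also low. A low gained share means by definition that more of these regions had a DMSO peak. Without the longest DMSO list the gained shares were 92.9% on X, 88.0% on chromosome 5, 73.5% on chromosome 16, 74.8% on chromosome 22 and 70.3% on chromosome 19, and the densities on chromosomes 22, 17 and 19 were 2.82, 2.26 and 2.21 per Mb. Gene density differs between these chromosomes, and its part was not tested.

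**Figure D5:**
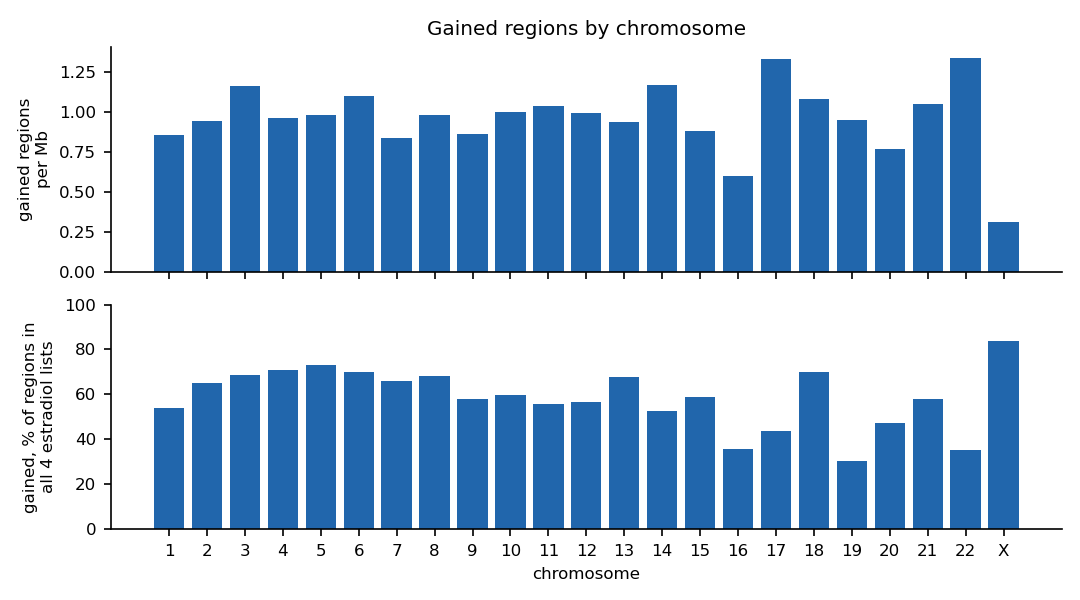
Gained regions per Mb (upper) and as a percentage of the regions in all 4 E2 lists on the same chromosome (lower). Chromosome 22 has the highest density, 1.34 per Mb, but with chromosomes 16 and 19 one of the lowest gained shares, 35.4%.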

How the data were processed

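Peak lists of 8 wild-type libraries (4 E2, 4 DMSO) were the main data, and 12 D538G lists were read at the regions found. The submitters' processing notes name Bowtie, MACS2, DESeq2 and the build hg19, without versions or roles, and the rest of the calling is not given in the sources used here. Each deposited list holds the peaks of 1 library, with a signal value for each peak from the authors, whose reference is not given, and the −log10 p and −log10 q of each peak as the authors deposited them. Each −log10 p was above 10. The deposited offset of the summit within the peak was used in 1 alternative. No list holds read counts, so depth and its precision are unknown.

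Peaks on chromosomes 1 to 22, X and Y that overlapped by at least 1 bp in any of the 8 lists were merged into regions (Python 3.11.15, pandas 2.3.3, numpy 2.4.6). A region was present in a list that had a peak in it, and its rank was that of its strongest peak. List values were compared by exact two-sided permutation tests, and presence by Fisher's exact test (scipy 1.17.1), adjusted by the Benjamini-Hochberg method with calls made below 0.05. The 4 lists of a group come from 2 clones with 2 replicates each. Nothing states that replicates were separate cultures, so p-values measure the spread between these libraries, which may be technical. E2 and DMSO lists were paired through the clone named in the labels.

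Named regions were the 10 gained regions with the highest mean percentile, the 3 widest, the 3 largest chains, the 5 strongest regions in all E2 and at least 3 DMSO lists, and 3 with DMSO peaks alone. The regions, gene list and D538G comparison were chosen with earlier results of these data known, and the genes nearest to named regions were entered after the regions were seen. GRCh37 gene positions were entered by hand because no annotation of that build was at hand. All 60 genes lay on the chromosome that the RefSeq table of GRCh38.p14 gives, and 45 had a length within 5% of the length there. The merging, rules and tests were tested on simulated lists.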

Additional observations from a re-analysis of the deposited data

Results flagged for a closer look

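Dixon's gap test was applied to 9 sets of 4 lists, and chance flags about 1 in 20 such sets. The DMSO list of clone 1 replicate 2, with 29118 peaks, lay far above the other 3 DMSO lists, which held 45 to 1080. The same list met 26 of the 43 start sites, against 0, 0 and 1 in the others. On the log10 scale of peak number it was not set apart in this way.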

How the results depend on the processing

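Of 94 alternative values of the 7 results, 80 kept their direction and side of the threshold or stayed close to the value reported. This total is a lenient measure. A count was taken as close over a wide range, such as 3872 or 4075 gained regions against 2766. Of the 80, 13 were the calls of single regions, which stayed at 0. The tests over lists did not pass to begin with, so none could weaken past the threshold. A replicate block paired E2 and DMSO lists by clone and replicate number. The differences of 1.46 log10 units in peak number and 166 bp in width then had an exact sign-flip permutation p of 0.125, the smallest possible for 4 pairs. By the sign test within pairs 0 regions passed, but its smallest p is also 0.125. No region could pass, so the block cannot test the calls. Leaving out each list in turn gave differences in peak number of 1.11 to 2.04 and in width of 128 to 216 bp, and both passed an unadjusted threshold only without the DMSO list of clone 1 replicate 2. The difference in clustered share ranged from -9.60 percentage points without that same list to 12.7 without the DMSO list of clone 2 replicate 2, and was -2.57 with neighbours within 5 kb, so its direction is not settled. Gained regions numbered 2767 to 3872 over the lists left out, 5237 within replicate number 1, 8735 within replicate number 2 and 30 when only the 1000 strongest peaks of a list were kept. Both within-replicate counts, and the counts without the clone 1 replicate 2 pair (4075 gained regions, 24 loci), were added after seeing the data, as were the rank, width, chain, chromosome and D538G values of the regions gained without the longest DMSO list. The share of clone 1 gained regions found in clone 2 ranged from 62.3% to 94.5% over the lists left out, lowest without E2 clone 1 replicate 1 and 67.1% without E2 clone 2 replicate 2, and was 96.8% with the clones exchanged. Loci with a gained region fell to 11 with start sites within 20 kb and rose to 29 within 100 kb. No matching share of the genome was computed for these windows. No paired fit was made for the clustered share, since 2 DMSO lists were too short. Read depth is unknown, and short lists limit what their absence of a peak can show.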
